A study of Rattus norvegicus with 4 samples.

Results

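Wwox and Fhit are long genes that lie, in the human genome, across common fragile sites, stretches of chromosome that break when DNA replication is disturbed. They were examined in the ventral prostate of rats given PhIP, through every probe set that the platform annotation assigns to Wwox or Fhit alone. These were 3 probe sets for Wwox and 1 for Fhit, so 4 of the 20826 probe sets with a single gene symbol, and 2 of 14217 genes. The genes had been picked because they stood lower in PhIP, so their own difference between the groups is given as a description and was not tested.

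PhIP is a mutagenic heterocyclic amine of well-cooked meat and fish, which forms bulky DNA adducts once it has been activated in the body. Male F344 rats, an inbred strain, were 6 weeks old when they were treated with PhIP at 300 mg/kg or left without it, and were killed 2 days later. There were 4 rats in each group, and material of 2 rats was mixed on each array, which gave the arrays PhIP 1 and PhIP 2 and the arrays control 1 and control 2. A replicate is thus a mix of 2 rats, and its spread understates that between single animals. The labels do not say how PhIP was given or whether the rats without it received a vehicle.

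Wwox encodes an oxidoreductase of the short-chain dehydrogenase family that carries a pair of WW domains, through which it binds transcription factors and signalling proteins with proline-rich motifs. Fhit encodes a small hydrolase of the histidine triad (HIT) family that cleaves diadenosine polyphosphates. Both are described as tumour suppressors: in human cancers, prostate cancer among them, deletions inside these genes and loss of their proteins are common, and mice with less of either gene develop more tumours. The short coding parts of both genes are spread over very large introns, so that transcription of one copy takes many hours and can still be under way when the DNA is replicated.

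The positions below refer to RefSeq on assembly GRCr8. Wwox lies on chromosome 19 from 59338402 to 60269323, a span of 931 kb, and Fhit on chromosome 15 from 16365401 to 17872901, a span of 1508 kb. Among the 10472 genes with a known span and a tested probe set, Fhit had the 8th longest span and Wwox the 21st. The promoter windows, shown because both genes stood lower in the same tissue, run from 250 bases before to 50 bases after the RefSeq start, both on the plus strand. Capitals mark matches to the motifs searched.
Wwox, chr19:59341134-59341433: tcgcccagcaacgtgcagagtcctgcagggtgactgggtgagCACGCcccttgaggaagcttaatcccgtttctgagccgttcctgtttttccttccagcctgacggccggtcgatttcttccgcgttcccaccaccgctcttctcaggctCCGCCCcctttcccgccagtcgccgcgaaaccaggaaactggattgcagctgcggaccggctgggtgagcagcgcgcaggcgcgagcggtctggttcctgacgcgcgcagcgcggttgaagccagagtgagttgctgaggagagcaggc
Fhit, chr15:16398002-16398301: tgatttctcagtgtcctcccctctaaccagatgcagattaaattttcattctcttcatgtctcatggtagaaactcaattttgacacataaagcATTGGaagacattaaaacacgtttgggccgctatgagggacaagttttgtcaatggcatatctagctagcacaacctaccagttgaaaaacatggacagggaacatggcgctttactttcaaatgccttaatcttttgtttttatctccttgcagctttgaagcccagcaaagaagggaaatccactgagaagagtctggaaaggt

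The windows differed in composition. That of Wwox was 64.0% G and C with 28 CpG dinucleotides, more than in 87.3% of 33469 promoter windows. That of Fhit was 40.7% G and C with 3 CpG dinucleotides, against medians of 51.7% and 7 over all windows. The RefSeq starts used here lie inside the annotated genes, by 2.98 kb for Wwox and by 32.9 kb for Fhit. Other starts of these genes are not shown, and whether either window acts as a promoter in this tissue was not tested. The composition and motifs given for Fhit may thus not be those of its main promoter. Of 5 motifs searched on both strands, the Wwox window held 1 GC box (GGGCGG, present in 33.1% of all windows) and 1 xenobiotic response element core (GCGTG, in 29.7%). The Fhit window held 1 CCAAT box (CCAAT, in 37.5%). Neither held the TATA box TATAAA (14.2% of windows) or the E2F core TTCGCGC (1.51%). Other forms of these motifs, those of the E2F site among them, were not searched. These matches are letters in a window, and none of the 5 motifs searched was shared by the 2 windows shown.

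The brightest Wwox probe set was 1377183_at. Its MAS5 signal, a linear brightness that the authors scaled to a common mean on each array, was 9.7 and 13.1 on the PhIP arrays, against 62.7 and 62.4 on the control arrays. Both PhIP arrays were low, both control arrays were high, and the gap of 49.3 between the groups was many times the range of 3.4 within PhIP and of 0.3 within control. The means were 11.4 ± 2.40 in PhIP and 62.55 ± 0.21 in control (SD, n = 2 each), so the PhIP mean was 18.2% of the control mean.

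The other Wwox probe sets were dim. Probe set 1396761_at had signals of 1.4 and 1.7 on the PhIP arrays and of 6.3 and 17.0 on the control arrays. The groups did not overlap, but the gap of 4.6 between them was smaller than the range of 10.7 within control. Probe set 1391883_at had signals of 7.6 and 5.1 on the PhIP arrays and of 7.7 and 5.3 on the control arrays. Its groups overlapped, and its means of 6.35 ± 1.77 in PhIP and 6.50 ± 1.70 in control (SD, n = 2 each) differed by less than the spread between arrays. These probe sets and the brightest one, 1377183_at, are each annotated to a different expressed sequence tag. The places of all of them in the Wwox transcripts were not analysed here.

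Fhit was read by a single probe set, 1369318_at, annotated to its reference transcript. The signal was 7.5 and 1.5 on the PhIP arrays, against 49.1 and 27.5 on the control arrays. Both PhIP arrays lay below both control arrays, but the control arrays differed from each other by 21.6, more than the lower of them differed from the higher PhIP array. The means were 4.50 ± 4.24 in PhIP and 38.3 ± 15.3 in control (SD, n = 2 each), so the PhIP mean was 11.7% of the control mean. The control arrays differed by 0.3 for Wwox 1377183_at and by 21.6 for Fhit, with control 1 the higher one for both. Within PhIP the order differed, since PhIP 2 was the higher array for Wwox 1377183_at and PhIP 1 for Fhit.

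**Figure D1:**
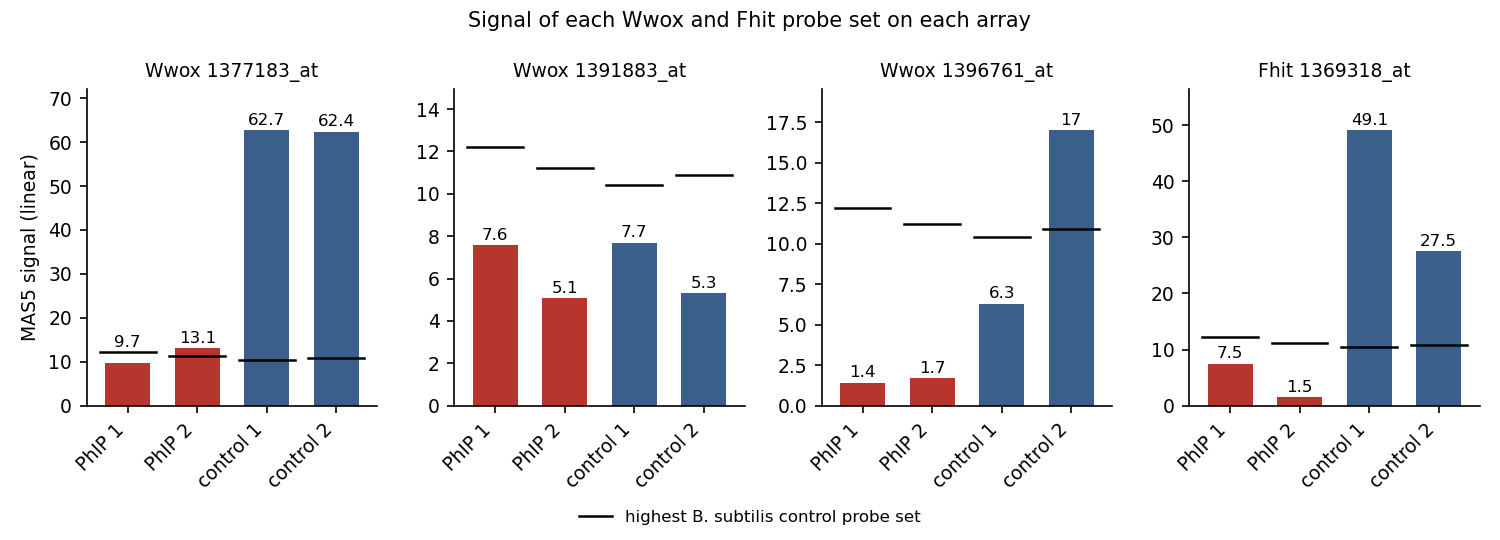
MAS5 signal (linear scale, arbitrary units) of the 3 Wwox probe sets and the Fhit probe set on each array, PhIP in red and control in blue. Each bar is 1 array of 2 mixed rats, and the black line marks the highest of 27 Bacillus subtilis control probe sets on that array. Wwox 1377183_at and Fhit stand at 62.4 or more and 27.5 or more on the control arrays and at 13.1 or less and 7.5 or less on the PhIP arrays.

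How small the remaining signal in PhIP was can be read against manufacturer probe sets for Bacillus subtilis transcripts, which rat RNA does not contain. The labels do not say whether such transcripts were added. The 27 probe sets read between 0.1 and 12.2 over the 4 arrays, with a highest value of 12.2 on PhIP 1 and 11.2 on PhIP 2. Wwox 1377183_at was inside that range on PhIP 1 and above it on PhIP 2, and Fhit was inside it on both PhIP arrays. On the control arrays, where the highest control probe sets read 10.4 and 10.9, Wwox 1377183_at and Fhit were above it. Wwox 1391883_at was inside the range on all 4 arrays, so a change in that probe set was not detectable at this brightness. Wwox 1396761_at was inside the range on both PhIP arrays and on control 1, and only its signal of 17.0 on control 2 was above it. The array software's detection calls were not used here, and the signals in PhIP bound the true size of the drop poorly.

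On the scale used for all probe sets, log2(signal + 10), the difference of PhIP minus control was −1.77 for Wwox 1377183_at, −1.73 for Fhit, −0.86 for Wwox 1396761_at and −0.014 for Wwox 1391883_at. The added constant shrinks the change of dim probe sets. The ratio of mean signals, control over PhIP, was 5.49 for Wwox 1377183_at and 8.51 for Fhit, against folds of 3.40 and 3.32 on the log2 scale. With a constant of 2 the log2 differences were −2.28 and −2.75, and with a constant of 20 they were −1.40 and −1.24. The difference of Wwox 1396761_at was −1.82 with a constant of 2, −2.75 with none and −0.50 without control 2. Fhit therefore had the larger drop with a small constant and Wwox with a large one, and the order of the 2 genes by size of drop is not settled.

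Both genes stood at the edge of the whole distribution. Of 18625 probe sets bright enough to be tested, 81 (0.435%) had a log2 difference of −1 or lower, and Wwox 1377183_at ranked 3rd from the lowest and Fhit 5th. A probe set was tested where signal plus constant averaged over 24.28, and 2 of the 4 member probe sets passed. Both did so through the control arrays, since the PhIP signals of 13.1 or less lay below the 14.28 to which the filter amounts. Without PhIP 2, Fhit ranked 40th and Wwox 7th, and without PhIP 1 Fhit ranked 1st and Wwox 9th. Without either control array, Fhit no longer passed the filter, and Wwox ranked 11th without control 1. Over all probe sets, dim ones included, 25.4% had both PhIP arrays below both control arrays, as 3 of the 4 member probe sets did. The members were chosen from this contrast, so nothing is read from that count.

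Some properties of the arrays moved with the groups and are given as values. The median signal was 23.2 and 23.1 on the PhIP arrays and 25.5 and 27.4 on the control arrays. The 3′ signal of actin over its 5′ signal, which is high in degraded RNA, was 5.71 on control 2, against 3.49 to 4.18 on the other arrays. The 18 hybridization controls, added in fixed amounts by the standard protocol, were all lower in PhIP, and after scaling to them Wwox 1377183_at and Fhit each stood at −1.60. Wwox 1377183_at was as low without control 2 (−1.77) as without control 1 (−1.76), whereas Fhit stood at −2.06 without control 2 and at −1.40 without control 1.

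The tissue held epithelial and stromal cells, and in bulk RNA fewer cells of a type and less RNA per cell cannot be told apart. Of 10 luminal epithelial markers, 5 were higher in PhIP at an unadjusted limma p under 0.05 and 0 lower, against 6.12% and 8.45% of all tested genes, with a median log2 difference of 0.19. Their summed signal was 15244 and 15356 on the PhIP arrays and 14101 and 13737 on the control arrays. All 8 smooth muscle markers were lower at that p, with a summed signal of 4134 and 4071 in PhIP and 6788 and 6815 in control. Of 8 fibroblast markers 7 were lower, with sums of 7127 and 7195 in PhIP and 11941 and 9406 in control. The medians were −0.81 for smooth muscle, −0.62 for fibroblasts, −0.20 for 4 basal epithelial markers, −0.37 for 6 endothelial markers and −0.81 for 3 nerve markers. They were −1.15 for 7 skeletal muscle markers, −0.88 for 3 adipocyte markers and 0.26 for 4 leukocyte markers. No marker was at 0 on every array. The part of cell composition in the values of Wwox and Fhit was not tested.

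Genes beside Wwox on chromosome 19 did not show its drop. The 5 nearest genes on each side with a single-gene probe set were taken, and 9 of these 10 were bright enough to be tested. Maf, a transcription factor gene whose annotated span overlaps the end of Wwox, had signals of 376.7 and 344.2 on the PhIP arrays and 359.2 and 355.7 on the control arrays (log2 difference 0.01 ± 0.11, SE). Its PhIP values enclosed both control values. On the other side, Clec3a, a lectin gene 17.3 kb away, read 0.7 or less on every array, too dim to be tested. Nudt7, which encodes a peroxisomal coenzyme A diphosphatase 289 kb away, had 170.2 and 162.4 in PhIP and 199.1 and 175.3 in control (−0.16 ± 0.13).

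Farther out, Mon1b (−0.05 ± 0.21), the lysyl-tRNA synthetase gene Kars1 (−0.07 ± 0.10) and the telomere protein gene Terf2ip (0.07 ± 0.13) lay on the Clec3a side. Another probe set of Mon1b stood at 0.32. On the Maf side, the dynein light chain gene Dynlrb2 stood at 0.02 ± 0.35, Cmc2 at −0.09 ± 0.20 and the kinetochore gene Cenpn at −0.14 ± 0.21. The groups overlapped in all 6 of these genes. The exception was Cdyl2, a chromodomain gene 1231 kb from Wwox, with signals of 24.0 and 32.6 in PhIP and 49.6 and 58.2 in control (−0.74 ± 0.21, limma adjusted p = 0.226, and −0.53 in another probe set). It was the only one of the 9 with an unadjusted p under 0.05, against 8.45% of all genes that were lower at that p. The median of the 9 was −0.07, beside −0.03 over all 10507 tested genes.

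Fhit lies in a sparser region of chromosome 15, where 5 of the 10 neighbours were bright enough to be tested. The nearest of these was Cfap20dc, 789 kb away, with 16.2 and 21.6 in PhIP and 10 and 19.9 in control (0.23 ± 0.29). Cep15 stood at 0.14 ± 0.14, Fam107a at −0.31 ± 0.32 and Kctd6 at −0.16 ± 0.18, with overlapping groups in each. Thoc7, a subunit gene of the THO complex that couples transcription to mRNA export, was the farthest of the 5 at 2658 kb. It had 528.9 and 633.3 in PhIP and 423.0 and 396.5 in control (0.49 ± 0.12, adjusted p = 0.177), and its other probe set stood at −0.27. None of the 5 was lower at an unadjusted limma p under 0.05. The untested neighbours Synpr, Cadps, Fezf2, Fam3d and Acox2 had signals of 17.8 or less on every array, and their differences lay between −0.40 and 0.26. None of the 10 neighbours of Fhit and none of the 10 of Wwox had a log2 difference of −1 or lower, as 0.457% of all tested genes did.

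**Figure D2:**
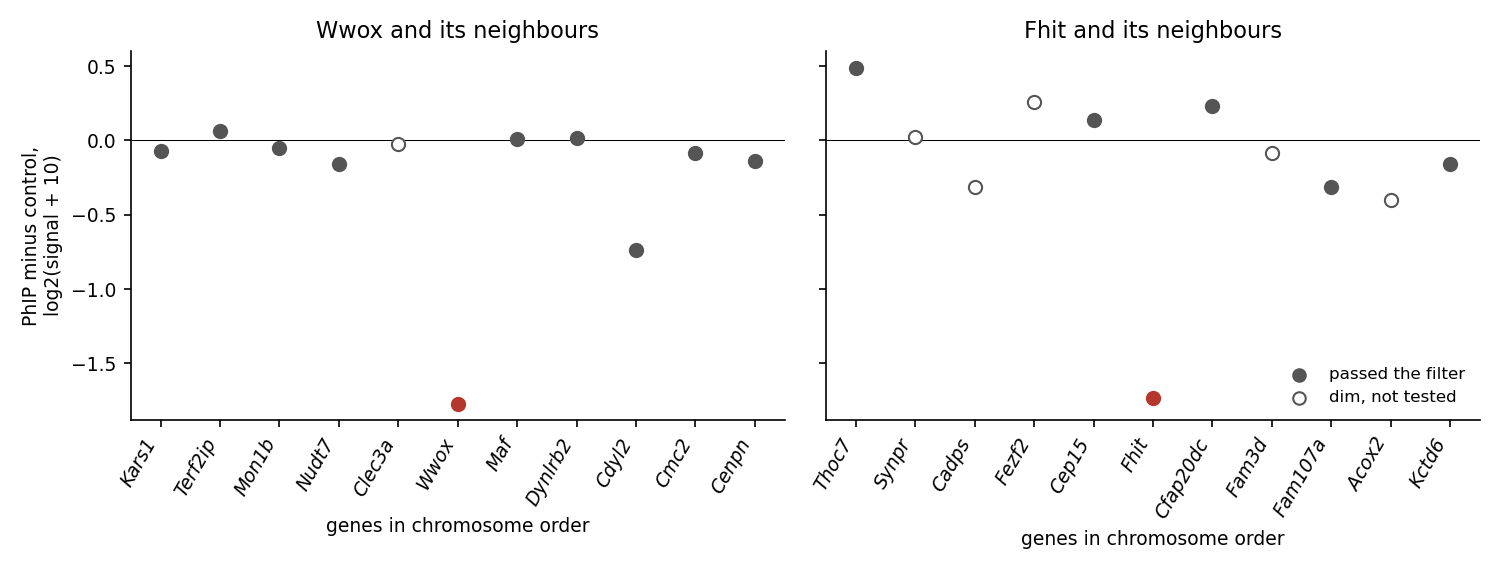
PhIP minus control difference in log2(signal + 10) for Wwox (left) and Fhit (right), in red, and the 5 nearest measured genes on each side in chromosome order. Filled points passed the brightness filter and open points did not. Wwox at −1.77 and Fhit at −1.73 stand apart from neighbours that lie between −0.74 and 0.49.

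Genomic span, the property that sets Wwox and Fhit apart from most genes, went with the difference across the array. Genes other than these 2 were grouped by span. The median log2 difference was 0.0013 for 2628 tested genes under 10 kb, −0.0072 for 4961 of 10 to 50 kb and −0.03 for 1498 of 50 to 100 kb. It was −0.09 for 907 genes of 100 to 200 kb, −0.24 for 400 of 200 to 500 kb and −0.38 for 76 of 500 kb or more. The share of genes with both PhIP arrays below both control arrays was 23.6% in the shortest class and 65.8% in the longest, against 26.9% of all tested genes. The longest class was dimmer, with a median log2 level of 5.70 against 7.09 in the shortest, and 76 of its 158 genes were bright enough to be tested. With no filter the median of all 158 was −0.26.

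Within groups the span classes differed less than between the groups, but PhIP 2 stood lower than PhIP 1 in the longest classes. The median of PhIP 2 minus PhIP 1 was −0.025 for genes of 200 to 500 kb. In the longest class the median of PhIP 2 minus PhIP 1 was −0.09 and that of control 2 minus control 1 was 0.03, while in the shortest class these were 0 and 0.08. Of the 76 genes in the longest class, 30 were lower and 2 higher at an unadjusted limma p under 0.05, against 8.45% and 6.12% of all tested genes. The number lower was 33 of 75 without control 2, 18 of 79 without PhIP 1 or without PhIP 2, 17 with each array centred on its median and 14 when scaled to the hybridization controls. Of the 76, 0 passed an adjusted p of 0.05 in limma, as 1 of 10507 genes (0.00952%) and 5 of 18625 probe sets (0.0268%) did.

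Wwox and Fhit, picked for low values, had the lowest differences of the 78 tested genes of 500 kb or more, with members included. Nothing is read from their place in that order. The next was Ptprm, a receptor tyrosine phosphatase gene of 705 kb, with signals of 30.4 and 23.3 in PhIP and 82.2 and 103.2 in control (−1.48 ± 0.20, adjusted p = 0.0534), and −0.72 ± 0.33 in its other tested probe set. Then came the methyltransferase gene Smyd3 (−1.07 ± 0.30), the glypican gene Gpc6 (−1.0 ± 0.26, and −0.72 ± 0.22 in another probe set) and the kinase gene Cdk14 (−0.91 ± 0.19). The phosphodiesterase gene Pde4d (−0.90 ± 0.35), Cdkal1 (−0.84 ± 0.17), the gephyrin gene Gphn (−0.80 ± 0.24) and Atrnl1 (−0.79 ± 0.13) completed the 8 lowest. In all 8 both PhIP arrays lay below both control arrays, and 0 of the 8 passed the adjustment. The quartiles of the class without Wwox and Fhit were −0.60 and −0.20.

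**Figure D3:**
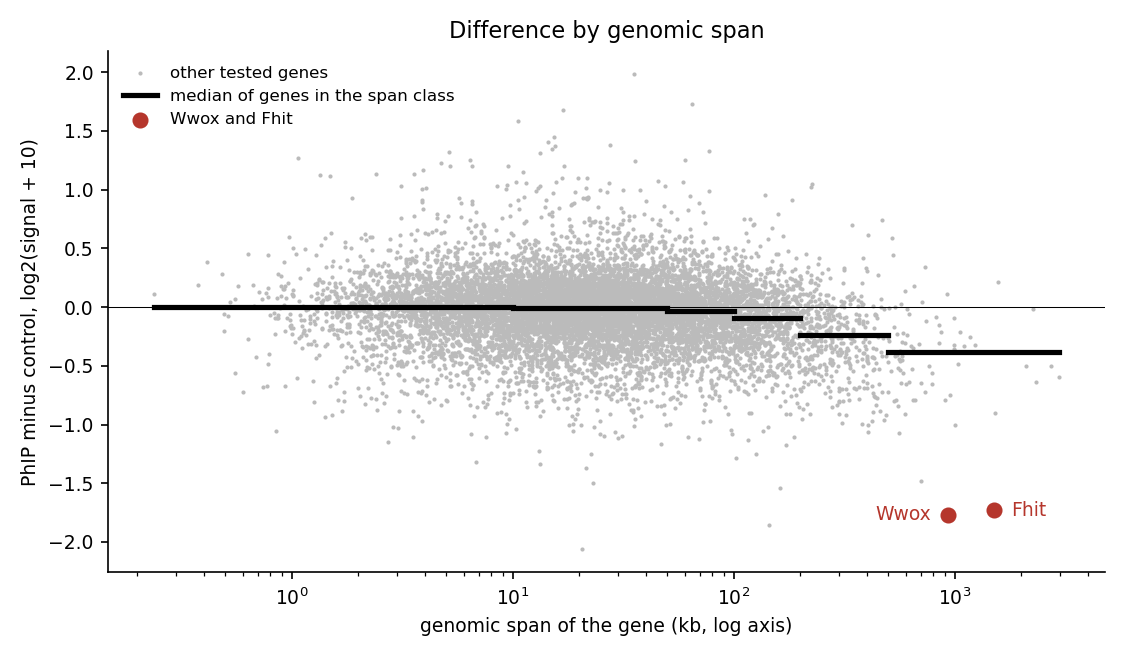
PhIP minus control difference in log2(signal + 10) of each tested gene against its genomic span in kb (log axis). Grey points are other genes, black bars the median of each span class, and red points Wwox (931 kb, −1.77) and Fhit (1508 kb, −1.73), below a class median of −0.38.

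Other genes at common fragile sites of the human genome were mostly dim in this tissue. Of 15 such genes on the array, 7 were bright enough to be tested, and 3 of these were lower and 0 higher at an unadjusted limma p under 0.05, against 8.45% and 6.12% of all tested genes. Immp2l, a mitochondrial inner membrane peptidase gene of 900 kb, had 7.8 and 22.4 in PhIP and 32.1 and 31.0 in control (−0.79 ± 0.31, adjusted p = 0.354). The spread within PhIP was large, but both PhIP arrays were below control. Nbea, the neurobeachin gene, had 110.7 and 116.4 in PhIP and 156.7 and 159.4 in control (−0.44 ± 0.14, adjusted p = 0.253).

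Cdh13, which encodes the cadherin T-cadherin and lies on the same chromosome as Wwox from 63258251 to 64296122, was read by 3 tested probe sets. Its brightest probe set had 47.2 and 34.3 in PhIP and 60.9 and 60.1 in control (−0.49 ± 0.20), and the others stood at −0.95 ± 0.20 and −1.27 ± 0.19. The splicing factor gene Rbfox1 stood at −0.51 ± 0.27, Ccser1 at −0.33 ± 0.29, the neurexin-like gene Cntnap2 at −0.02 ± 0.15 and the nuclear receptor gene Rora at 0.34 ± 0.25. In Ccser1, Cntnap2 and Rora the groups overlapped, so a drop was not seen in every long fragile-site gene. The median of the 7 was −0.44, but over all 15 with no filter it was 0.08. The 8 untested genes read 20.9 or less on every array, and their differences lay between −0.68 (Dpyd) and 0.89 (Dmd).

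Genes listed as binding partners of Wwox were spread around 0. Of 13 tested, 2 were lower and 2 higher at an unadjusted limma p under 0.05, where 8.45% of all tested genes were lower and 6.12% higher. Their median was 0.08. Ackr3, an atypical chemokine receptor gene that was on the list without being an established partner, had 48.8 and 58.0 in PhIP and 108.4 and 100.4 in control (−0.85 ± 0.17, adjusted p = 0.114). Mapt, the gene of the microtubule protein tau, had 6.2 and 8.7 in PhIP and 21.5 and 31.0 in control (−1.05 ± 0.27, adjusted p = 0.190). Both PhIP signals of Mapt lay inside the range of the Bacillus subtilis probe sets. On the other side stood Jun, a subunit gene of the transcription factor AP-1 (0.53 ± 0.16, and 0.21 in each of 2 other probe sets), and Litaf, an endosomal protein gene with a WW-binding motif (0.30 ± 0.08). Tfap2a, a transcription factor gene, stood at 0.15 ± 0.10.

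The short-chain dehydrogenase genes, relatives of Wwox by enzyme family, had a median of −0.01 over 19 tested members. Of these 1 was lower and 0 higher at an unadjusted limma p under 0.05, a number near the shares of 8.45% and 6.12% over all tested genes. The 1 was Hsd17b7, an enzyme of sterol synthesis, with 126.2 and 123.2 in PhIP and 189.4 and 179.7 in control (−0.53 ± 0.13, and −0.88 in another probe set). Hsd11b1, which reactivates glucocorticoids, stood at −0.46 ± 0.23, Hsd17b12 at −0.21 ± 0.12, Hsd17b11 at 0.25 ± 0.13 and the retinol dehydrogenase gene Rdh14 at 0.29 ± 0.18.

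Relatives of Fhit had differences between −0.32 and 0.48. Of 13 tested genes for other HIT proteins and for enzymes that cleave dinucleoside polyphosphates or related nucleotides, 0 were lower and 3 higher at that p, against 8.45% and 6.12% of all tested genes. Their median was −0.07, or 0.06 after median centring. The HIT gene Hint3 had 184.1 and 202.3 in PhIP and 148.0 and 134.4 in control (0.43 ± 0.14, adjusted p = 0.272). Nudt4, a diphosphoinositol and dinucleotide hydrolase gene, stood at 0.39 ± 0.10 and the ectonucleotidase gene Enpp3 at 0.48 ± 0.18. The HIT genes Dcps, the scavenger decapping enzyme, and Hint2 stood at −0.30 ± 0.20 and −0.15 ± 0.10. Of 8 genes listed as physical or functional partners of Fhit, 1 was lower and 0 higher, again near those shares. The 1 was Cdc25a, a phosphatase gene that promotes entry into S phase, with 41.1 and 37.8 in PhIP and 59.0 and 78.4 in control (−0.66 ± 0.20, adjusted p = 0.246). Hspd1, the mitochondrial chaperonin gene, stood at 0.11 ± 0.08, Mdm2 at 0.22 ± 0.13, Src at −0.24 ± 0.17 and Lef1 at −0.35 ± 0.21. Other tested probe sets stood at 0.19 and 0.84 for Mdm2 and at 0.68 and −0.24 for Src.

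The replication stress response protects fragile sites when forks stall, and its genes had a positive median difference, unlike Wwox and Fhit. Of 21 tested genes, 7 were higher and 0 lower at an unadjusted limma p under 0.05, against 6.12% and 8.45% of all tested genes, and 0 passed the adjustment. Their median was 0.20, which was 0.09 without PhIP 2 and 0.41 after scaling to the hybridization controls. Fancd2, whose product binds at fragile sites in mitosis, had 56.5 and 67.8 in PhIP and 23.7 and 3.9 in control (1.73 ± 0.39, adjusted p = 0.149). Its signal of 3.9 lay inside the range of the Bacillus subtilis probe sets. Subunit genes of the single-strand DNA-binding protein RPA had 115.6 and 108.3 in PhIP against 54.4 and 62.8 in control for Rpa2 (0.83 ± 0.16), and Rpa1 stood at 0.65 ± 0.12. The ribonuclease H2 gene Rnaseh2a (0.78 ± 0.17) and the flap endonuclease gene Fen1 (0.64 ± 0.14) were also among the 7.

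Other tumour suppressor genes showed no common direction. Of 19 tested, 2 were lower and 3 higher at an unadjusted limma p under 0.05, against 8.45% and 6.12% of all tested genes, and 0 passed the adjustment. The median was 0.0058. Dlc1, a gene of 421 kb, had 23.1 and 21.9 in PhIP and 55.4 and 52.0 in control (−0.97 ± 0.20, adjusted p = 0.116). Bin1, an adaptor gene that binds Myc, stood at −0.42 ± 0.15. On the higher side were the cell cycle inhibitor genes Cdkn1a (1.59 ± 0.17, adjusted p = 0.0517) and Cdkn1b (0.26 ± 0.10) and the E-cadherin gene Cdh1 (0.29 ± 0.07).

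**Figure D4:**
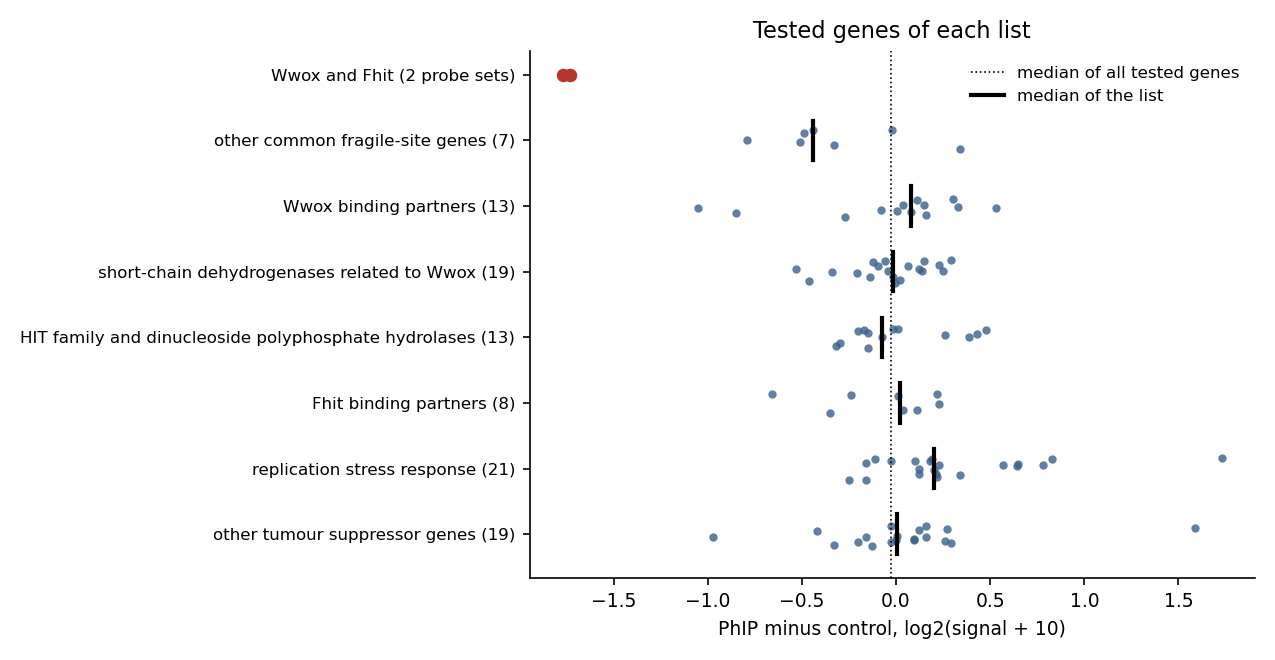
PhIP minus control difference in log2(signal + 10) of the tested genes in each list, with the number tested in parentheses. Blue points are genes, black bars the median of each list and the dotted line the median of all tested genes. Each gene is drawn by its brightest single-gene probe set. Wwox and Fhit, in red, lie at −1.77 and −1.73, and no drawn point of the lists lies below −1.05. Another tested probe set of Cdh13, not drawn, stood at −1.27.

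The genes most like Wwox and Fhit over the 4 arrays were sought among 14195 other tested single-gene probe sets, by the distance between log2 values after each probe set's own mean was removed. Nearest to Wwox 1377183_at were probe sets of the collagen gene Col6a3 (distance 0.488), Ptprm (0.508), the mitochondrial carrier gene Slc25a39 (0.542), the serine synthesis gene Psat1 (0.554), Cdh13 (0.609) and the matrix protease gene Adamts5 (0.627). Of these, Ptprm and Cdh13 have spans over 500 kb. Slc25a39 spans 5.00 kb, but its PhIP signals of 2.6 and 10.8 lay inside the range of the Bacillus subtilis probe sets. So did the signal of Col6a3 on PhIP 1 (7.6). Psat1 spans 22635 bases and had signals of 206.2 and 275.7 in PhIP and 535.6 and 633.3 in control. A like pattern over the arrays was thus not limited to long genes. Fhit was 17th in the order from Wwox, at a distance of 0.749.

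From Fhit, Wwox was the second nearest. The nearest was the MHC class II gene RT1-Ba (0.691), which shared the higher value on control 1, with 11.0 and 5.3 in PhIP and 68.8 and 18 in control. Ptprm (0.755), Vwa3a (0.764), the neurexin gene Nrxn2 (0.769) and the galectin-binding protein gene Lgals3bp (0.793) followed. The PhIP signals of RT1-Ba, Vwa3a (11.8 and 6.8) and Nrxn2 (6.9 and 7.0) lay inside the range of the Bacillus subtilis probe sets. With 4 arrays and 1 difference that dominates all of them, these distances describe the size of the drop more than any finer pattern.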

How the data were processed

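Total RNA of ventral prostate was labelled and hybridised to a rat Affymetrix array. The deposited values are MAS5 signal intensities on a linear scale, 1 for each of 31099 probe sets and 4 arrays, per the submitters' processing notes, which give no version. Detection calls were not used here, and no source used here gives the scaling target. The mean after trimming 2% at each end was 100.0 on every array.

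Gene names came from the platform annotation, with 1 symbol for 20832 probe sets, several for 436 and none for 9831. Spans and neighbours came from the RefSeq gene table of assembly GRCr8, matched by Entrez identifier for 14167 of 14217 genes, and promoter sequences from RefSeq on the same assembly. After 57 manufacturer probe sets were left out, log2(signal + 10) was analysed for the 18625 of 31042 probe sets whose mean lay above the 40th percentile. The test was limma 3.58.1 in R 4.3.3 (lmFit, then eBayes with trend), in both directions, and p was adjusted by Benjamini-Hochberg over all tested probe sets, on 2 residual and 5.67 prior degrees of freedom. The test was also run on simulated signals with independent noise and without the brightness filter, and no result here rests on that run. A gene was represented by its brightest single-gene probe set. Figures were drawn with matplotlib 3.10.9.

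The genes, the lists and the tests were chosen with earlier results of these data known. The rule for named genes took every member probe set, the 6 nearest probe sets by pattern, the 5 genes of each list that had the greatest moderated statistic, all neighbours and the 8 lowest genes of 500 kb or more. Dpyd and Dmd were named after their values were seen. The labels do not say that same-numbered arrays share anything, so the replicate number was no block.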

Additional observations from a re-analysis of the deposited data

How the results depend on the processing

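The direction of Wwox 1377183_at, Fhit and Wwox 1396761_at was the same under all 16 alternatives, and Wwox 1391883_at ranged from −0.12 to 0.12. Wwox 1377183_at stood at −2.47 with no constant, −2.28 with a constant of 2, −1.40 with 20, −1.60 when scaled to the hybridization controls, −1.63 with median centring and −1.64 with cyclic loess. Fhit stood at −3.45, −2.75 and −1.24 with those constants. Leaving out 1 array gave −1.88 to −1.65 for Wwox and −2.06 to −1.40 for Fhit. The median of genes of 500 kb or more was −0.47 with no constant, −0.26 with no filter, −0.24 with median centring and −0.18 when scaled to the hybridization controls, which moved the median of all tested probe sets to 0.11 and 0.18 (−0.03 as deposited). Without 1 array it lay between −0.45 and −0.30. Probe sets that passed the adjusted p numbered 5 of 18625 (0.0268%), but 0 with eBayes without trend, median centring, quantile normalization or no filter, 3 after cyclic loess, 22 with a constant of 20 and 44 with the filter at the 60th percentile. It was 52 with robust eBayes, 164 when scaled to the hybridization controls and 35 with the replicate number as a block. It ranged from 0 (without PhIP 1 or PhIP 2) to 2361 (without control 1) when 1 array was left out. The deviations of same-numbered arrays correlated at −0.0558, and nothing in the labels or data pairs them. The number of replication stress genes higher at an unadjusted p under 0.05 was 5 to 11. The cause of these shifts was not tested. Signals near those of the Bacillus subtilis probe sets limit what can be said of Wwox and Fhit in PhIP.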
